A study of Mus musculus with 3 samples.

Results

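miR-9, miR-124, miR-129, miR-137, miR-203 and miR-342 are microRNAs known to be silenced by promoter methylation in gastrointestinal tumours. They were followed here on microarrays of mouse intestinal organoids through every probe named for 1 of them, with either arm of the hairpin, which gave 13 of the 1265 microRNA probes. There were 3 arrays, each with the RNA of 1 group. The first held organoids from normal intestinal epithelium of wild-type mice, untreated. The second held organoids from intestinal tumours of ApcMin mice, whose germline carries a truncated copy of the tumour suppressor Apc, also untreated. The third held organoids of such ApcMin tumours that received 5-Aza-CdR (decitabine) at 1 uM, a nucleoside that blocks DNA methyltransferases. All were grown in Matrigel without serum, with EGF, Noggin and R-spondin 1 added. The labels give no animal age, no number of animals or cultures behind an array and no length of treatment. With 1 array per group no p-value or replicate error could be given, and array and group cannot be told apart.

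A microRNA gene can lie in or near a CpG island, a stretch of DNA rich in the dinucleotide CG. When the cytosines there become methylated, transcription of the hairpin precursor is lost and both mature arms fall with it. A methyltransferase inhibitor removes this mark as cells divide and can bring such a gene back. miR-124, miR-9, miR-137 and miR-129 are best known from neurons, miR-203 from stratified epithelium, where it restrains the proliferation of basal cells, and miR-342 from blood cells and from its place inside the Evl gene.

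The mature sequences below are those of the probes on which the results turn, with 1 arm each of miR-9 and miR-137 for the microRNAs near background. They are from RefSeq on GRCm38.p6, 5′ to 3′, and the seed (bases 2 to 8), which selects targets, is in capitals. Of the 13 probes 10 matched a mature sequence, and miR-129-1-3p, miR-124-3p and miR-124-5p did not.
miR-203-3p: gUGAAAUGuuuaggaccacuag
miR-342-3p: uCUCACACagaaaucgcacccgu
miR-129-2-3p: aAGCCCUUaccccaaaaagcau
miR-129-5p: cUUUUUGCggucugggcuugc
miR-9-5p: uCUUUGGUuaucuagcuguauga
miR-137-3p: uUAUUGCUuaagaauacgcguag

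No seed of the 10 matched sequences was shared by another of the 10 or by any other of the 1738 mature entries of that table. The G and C content of the matched sequences ran from 31.8% in miR-9-3p to 57.1% in miR-129-5p.

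The probes stand for 11 genes. miR-203 comes from chr12:112130880-112130955 and miR-342 from chr12:108658620-108658718, inside the span of the protein-coding gene Evl, an actin regulator, 103939 bases from its first annotated base. The probe of miR-129-5p reads the same sequence from Mir129-1 (chr6:29022619-29022691) and Mir129-2 (chr2:94241364-94241453), so it cannot separate these loci. Likewise miR-9-5p and miR-9-3p are each the product of Mir9-1 (chr3:88215598-88215686), Mir9-2 (chr13:83738814-83738885) and Mir9-3 (chr7:79505264-79505353). miR-124 comes from Mir124a-1 (chr14:64590657-64590741), Mir124a-2 (chr3:17795662-17795770) and Mir124a-3 (chr2:180894040-180894107), and miR-137 from chr3:118433857-118433929. Long non-coding RNA genes overlap Mir129-2, Mir9-1, Mir9-2, Mir9-3, Mir124a-1 and Mir124a-2. All coordinates are GRCm38.p6.

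The dinucleotide CG, which reads the same on both strands, was counted in the hairpins and in the promoters of the genes that overlap them. Of the 11 hairpins 8 were in the RefSeq table. Mir129-2 and Mir137 held 7 each, a number reached by 4.38% of the 1005 hairpins, whose median was 1. Both are shown because they carry the most, with CG in capitals.
Mir129-2: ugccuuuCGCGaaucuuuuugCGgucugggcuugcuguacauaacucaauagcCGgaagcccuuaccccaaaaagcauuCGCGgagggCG
Mir137: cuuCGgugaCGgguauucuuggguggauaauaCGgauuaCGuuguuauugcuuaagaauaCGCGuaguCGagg

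Mir9-3 held 3, Mir9-1, Mir129-1 and Mir342 held 2 each, and Mir203 and Mir9-2 held 1 each. Among the host promoters (250 bases before to 50 after a start), that of Mir9-3hg at chr7:79499776-79500075 held 35 CG and that of Evl at chr12:108554470-108554769 held 26. Of 32851 promoters in the table, 6.95% and 16.9% held as many, and the median was 7. These were the richest of the 12 starts listed: a second start of Mir9-3hg held 28 and a second start of Evl 4. Gm3764 over Mir9-1 held 9, the 3 starts of C130071C03Rik over Mir9-2 held 12, 7 and 4, and the 4 starts of Mir670hg over Mir129-2 held 6 or 7. These counts describe the sequence. Methylation was not measured on the arrays.

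Most of the probes lay close to background. The yardsticks on each array were the blank spots and 24 Negative Control spots, 8 of each of 3 kinds. A probe was called detected above the blank mean plus 2 SD, which was 29.1, 31.7 and 24.2 intensity units for wild-type, tumour and treated organoids. The brightest Negative Control spot was at 42.8, 53.0 and 38.3, always a spot of the third kind. Over its 8 spots that kind measured 41.7 ± 0.931, 49.3 ± 2.18 and 35.3 ± 1.86 (SD). Other controls printed 8 times at about this brightness, named S-Probe2, S-Probe6 and S-Probe7 in the files, varied more between their spots on the wild-type array, and their spread is given beside that of the Negative Control.

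Detected over the blank spots were 11, 10 and 9 of the 13 probes in wild-type, tumour and treated organoids, where 75.5%, 75.8% and 72.3% of all probes were. Brighter than the brightest Negative Control were 2, 4 and 3 of the 13, where 32.7%, 32.4% and 32.3% of all probes were. Those 2 in wild-type organoids were miR-203-3p and miR-129-1-3p. Tumour organoids added miR-342-3p and miR-129-2-3p, and treated organoids kept these apart from miR-129-2-3p. The other 9 probes exceeded the brightest Negative Control on none of the arrays: both arms of miR-9, miR-124 and miR-137, and miR-203-5p, miR-342-5p and miR-129-5p.

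**Figure D1:**
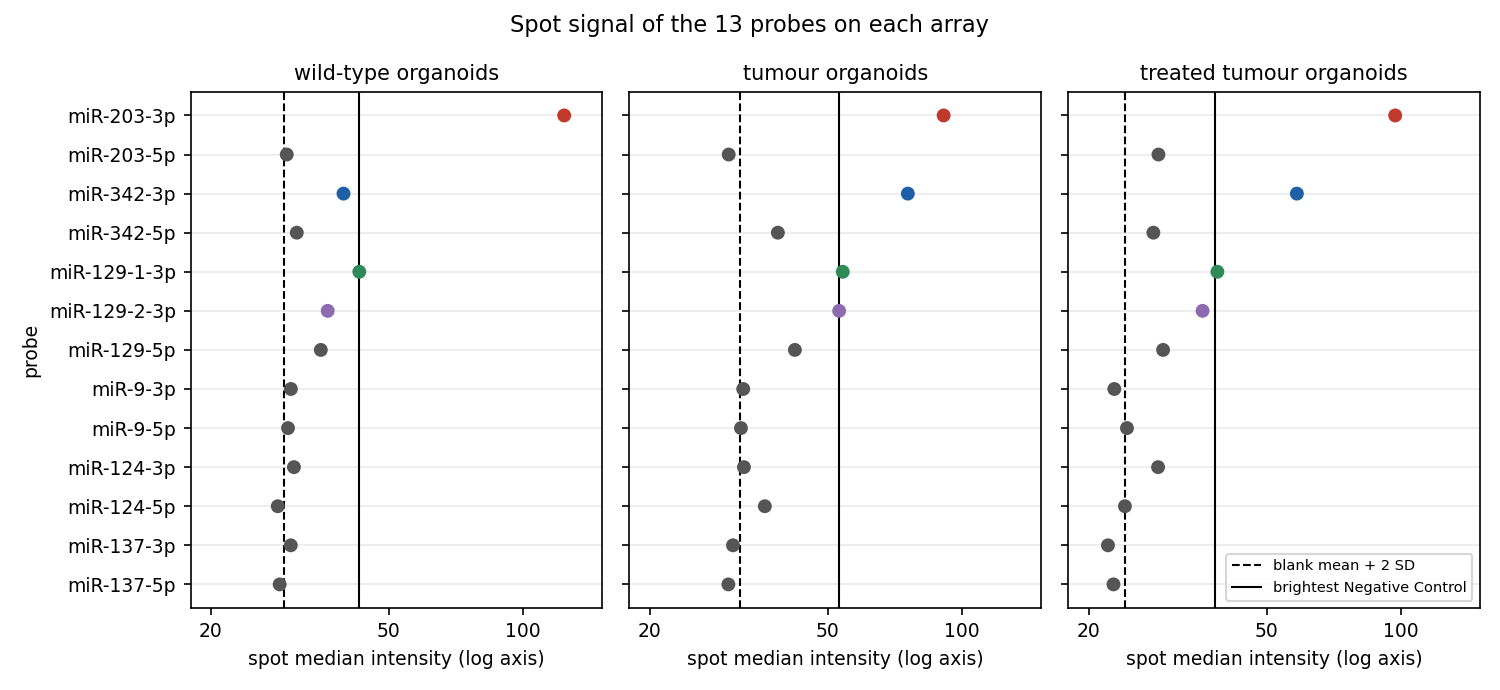
Spot median intensity (log axis) of the 13 probes on each of the 3 arrays, 1 spot per probe; the dashed line is the blank mean plus 2 SD and the solid line the brightest Negative Control spot of that array. miR-203-3p stood clear of the solid line on every array and miR-342-3p on the tumour and treated arrays, while miR-129-1-3p lay on it.

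The labelled tissue was checked by its markers. Of 17 probes for miR-192, miR-194, miR-215 and the miR-200 family, which mark intestinal epithelium, 14, 11 and 12 exceeded the brightest Negative Control in wild-type, tumour and treated organoids respectively. Their summed signal above the blank mean was 11262, 6890 and 4513. That sum is lower in tumour organoids through miR-192-5p, miR-194-5p and miR-215-5p, with log2 differences of -2.44, -2.60 and -4.22, and 4 of the 17 probes were at least 2-fold lower. Among the 3p arms of the miR-200 family, miR-200c-3p and miR-429-3p differed by 0.14 and 0.0036 on the log2 scale. miR-200b-3p, miR-200a-3p and miR-141-3p differed by -0.36, -0.26 and -0.26. Before normalization all of these had brighter spots in tumour organoids, as miR-200c-3p with 896 above the blank mean against 669. Of 9 probes for smooth muscle and fibroblasts, 3, 4 and 3 exceeded the Negative Controls, with sums of 135, 167 and 111. miR-214-3p and miR-143-5p were over that limit on every array, miR-199a-5p in wild-type and tumour organoids and miR-199b-5p in tumour and treated organoids. The other probes of this list, with both arms of miR-145a and miR-143-3p among them, were under it throughout. So were both probes of miR-126, which marks endothelium.

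The first comparison asked how tumour organoids differ from wild-type organoids. miR-203-3p was lower in tumour organoids and miR-342-3p higher, each by less than 2-fold after normalization. None of the 12 probes detected on at least 1 of the arrays reached 2-fold, where 2.6% of 1040 probes did (1.25% higher and 1.35% lower). These shares cannot be compared directly, because an offset of 50 intensity units was added before the logarithm. Most of the 12 were much dimmer than this offset on both arrays and could hardly reach 2-fold. With the blank mean subtracted instead, 5 of 12 did, but the share of all probes under that setting was not counted. The count of 0 of 12 therefore does not show that the dim members were unchanged. Of the 12, 6 lay above 0 and 6 below, with a median log2 difference of -0.0032, beside 0.0032 over all 1040 probes.

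miR-203-3p represses the stem cell factor p63 in mouse skin. Its spot stood 96.2 intensity units above the blank mean in wild-type organoids, 61.4 in tumour organoids and 74.3 in treated organoids. It exceeded all 24 Negative Control spots on each array and was lowest in tumour organoids. On the normalized log2 scale its levels were 7.28, 6.59 and 7.12, a difference of -0.69 between tumour and wild-type organoids, or 1.62-fold lower. The spread of the third Negative Control over its spots gives a log2 difference an SD of 0.050 in this comparison, which covers spot noise at that brightness and no difference between cultures or labellings. S-Probe2, S-Probe6 and S-Probe7 give 0.087, 0.069 and 0.21, the last with a highest wild-type spot of 57.1 against a median of 32.4. The direction held under all 6 other settings, with values from -1.19 (blank mean subtracted) to -0.18 (local background column), and it passed 2-fold after subtraction of the blank mean (-1.19) and on the authors' scale (-1.09). In the authors' value table the probe was at 206, 97.0 and 155. The local background recorded for this spot was 110, 97.2 and 91.2, close to the spot medians of 123, 90.9 and 97.0 and above the spot in tumour organoids.

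miR-203-5p, the other arm, was 2.21, 0.548 and 5.98 above the blank mean in wild-type, tumour and treated organoids, and was not detected on the tumour array. It gives only a bound, at least 1.01-fold lower in tumour than in wild-type organoids.

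miR-342-3p ran the other way. Its spot stood 12.3 above the blank mean in wild-type organoids, where it exceeded 16 of the 24 Negative Control spots, and 46.1 and 35.8 in tumour and treated organoids, where it exceeded all of them. Its normalized log2 levels were 5.996, 6.43 and 6.56. The difference of tumour minus wild-type organoids was 0.43, and was from 0.12 (local background column) to 1.47 (authors' values) over the other settings. The offset of 50 added before taking the logarithm draws the difference of so dim a probe towards 0. Taking off the blank mean in place of the offset gave 1.39, near the 1.47 of the authors. Before normalization the signal of miR-342-3p above blank was 3.76 times as high in tumour organoids. That ratio compares arrays not yet scaled to each other, so it is not the difference without the offset. In the authors' table its values were 26.2, 72.8 and 74.5. miR-342-5p, from the same hairpin, was at 3.78, 9.21 and 5.24 above the blank mean, under the brightest Negative Control throughout, with a difference of 0.078.

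Markers of other cells were set beside these. Blood-cell microRNAs, the class in which miR-342 is best known, summed to 367, 609 and 309 above the blank mean in wild-type, tumour and treated organoids, with the same 3-of-11 count over the Negative Controls on each array. The probes of miR-142, miR-144, miR-150 and miR-451a were under that limit on every array, and those over it were miR-223-3p, miR-486-3p and a shared probe of miR-486-5p and miR-3107-5p. Of the blood-cell sums miR-486-3p alone made up 265, 410 and 214. Such sums of signal are not normalized, and the first spike control averaged 8030, 7951 and 5007 on the 3 arrays. miR-205-5p, a microRNA of stratified epithelium like miR-203, was at 9.11, 64.3 and 56.7, so it was higher in tumour organoids, by 0.71 on the log2 scale, where miR-203-3p was lower. What part other cells have in either difference was not tested. In such bulk RNA, fewer cells of a type and less of a microRNA per cell cannot be told apart.

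miR-129 was the third microRNA of the set with signal near the limit. miR-129-1-3p stood 15.6, 24.6 and 16.1 above the blank mean in wild-type, tumour and treated organoids. It exceeded the brightest Negative Control by 0.146, 0.999 and 0.479 intensity units, less than the SD of that control's own spots on every array. Its normalized log2 levels of 6.09, 6.10 and 6.11 lay within spot noise of each other. miR-129-2-3p was at 9.16, 23.6 and 13.3 above the blank mean and passed the limit on the tumour array alone, by 0.011 units. Its difference in tumour against wild-type organoids was 0.18, larger than the spot SD of the Negative Control but not than that of S-Probe7, and ranged from 0.012 (local background column) to 0.93 (authors' values). miR-129-5p, the arm made by both loci, was at 7.88, 12.8 and 6.67 above the blank mean, with a difference of 0.034. The 3p arms come from paralogous hairpins, and whether their probes share signal was not tested.

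The probes of miR-9 and miR-137, and that of miR-124-5p, held little signal over the blanks. miR-9-5p was 2.41, 2.50 and 1.69 above the blank mean in wild-type, tumour and treated organoids, just over the detection limit each time. miR-9-3p was at 2.85, 2.88 and 0.152, and was not detected in treated organoids. miR-137-3p was detected on the wild-type array alone, at 2.83, and miR-137-5p on none, at 1.15, 0.499 and 0.0511. miR-124-5p was detected on the tumour array alone, at 6.69, which makes it at least 1.07-fold higher there than in wild-type organoids. miR-137-3p was at least 1.02-fold lower in tumour organoids. miR-9-5p and miR-9-3p differed by -0.017 and -0.023 on the log2 scale, within the spot SD, which does not show that a microRNA this dim is absent or equal.

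**Figure D2:**
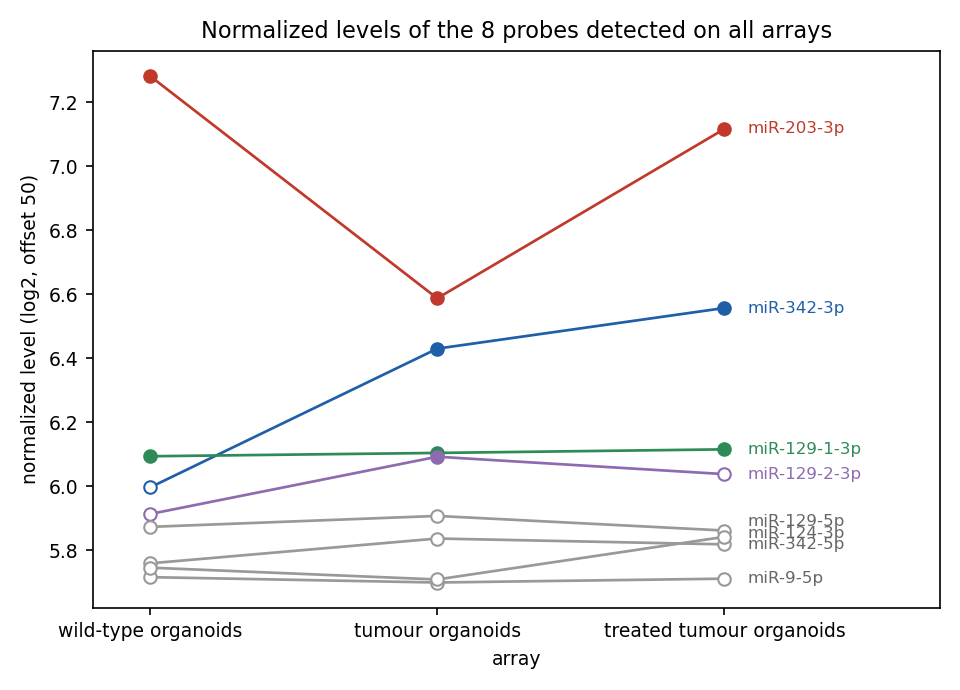
Normalized log2 level (offset 50) on each array for the 8 probes detected on all 3 arrays; filled points exceeded the brightest Negative Control of their array and open points did not, and lines join the values of 1 probe. miR-203-3p was at 7.28, 6.59 and 7.12 in wild-type, tumour and treated organoids, and miR-342-3p at 5.996, 6.43 and 6.56.

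The second comparison asked whether blocking DNA methyltransferases brought these microRNAs up in tumour organoids. miR-203-3p was higher after treatment by 0.53 on the log2 scale, or 1.44-fold. None of 11 probes reached 2-fold, where 0.0985% of 1015 probes did, all of it upwards. The offset limits this count for dim probes as in the first comparison. With the blank mean subtracted 4 of 11 reached 2-fold, and the share of all probes was again not counted. With the offset, 6 of the 11 lay above 0 and 5 below, with a median of 0.011, beside -0.0069 over all 1015 probes. The probes brighter than the Negative Controls on both arrays were miR-203-3p, miR-342-3p and miR-129-1-3p, and all 3 lay above 0, where 166 of 391 such probes did. Of these, miR-129-1-3p was at 0.011, within spot noise, and turned sign under 2 of 6 other settings. Before normalization the spot of miR-342-3p was dimmer after treatment, at 35.8 against 46.1 above the blank mean.

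For miR-203-3p the difference ranged from 0.048 with the local background column to 0.94 with the blank mean subtracted, and was above 0 in all 6 other settings. Its signal above blank was 1.21 times as high in treated organoids before normalization, on an array whose first spike control averaged 5007 ± 339 against 7951 ± 801 (SD, 8 spots) on the untreated tumour array. Scaling to the spike controls gave 0.56. miR-203-5p, undetected in untreated tumour organoids, was at least 1.11-fold higher after treatment, and its spot of 5.98 above blank exceeded 16 of the 24 Negative Control spots.

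miR-342-3p was at 46.1 above blank before and 35.8 after treatment, and quantile normalization turned this into a log2 difference of 0.13, with 0.034 to 0.29 over the other settings. The spot SD of a difference was 0.062 in this comparison by the third Negative Control, and 0.049, 0.054 and 0.085 by S-Probe2, S-Probe6 and S-Probe7. miR-342-5p was at -0.018, within that spread.

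The neuron-associated microRNAs showed no common direction. miR-124-3p was at 3.33, 2.999 and 5.92 above the blank mean in wild-type, tumour and treated organoids, and exceeded 6, 1 and 16 of the 24 Negative Control spots. Its difference after treatment was 0.13 on the log2 scale, and 1.38 in the authors' values, above the 0.68 of miR-203-3p there, where a signal this small is not held down by an offset. miR-124-5p went the other way, from 6.69 to 1.43, at least 1.06-fold lower. miR-129-2-3p differed by -0.054, miR-129-5p by -0.046 and miR-129-1-3p by 0.011, each within the Negative Control's spot SD. miR-9-5p differed by 0.012. miR-9-3p was detected before treatment and not after, and miR-137-3p and miR-137-5p on neither array. Other neuronal markers (16 probes, with miR-128, miR-138, miR-153, miR-218, miR-219 and miR-383) had 5, 3 and 3 probes over the Negative Controls in wild-type, tumour and treated organoids. miR-128-2-5p made up 1666, 1916 and 1649 of their summed 1855, 2204 and 1803. The other arm, miR-128-3p, was under the brightest Negative Control on every array, at 8.76, 13.5 and 11.5 above the blank mean.

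**Figure D3:**
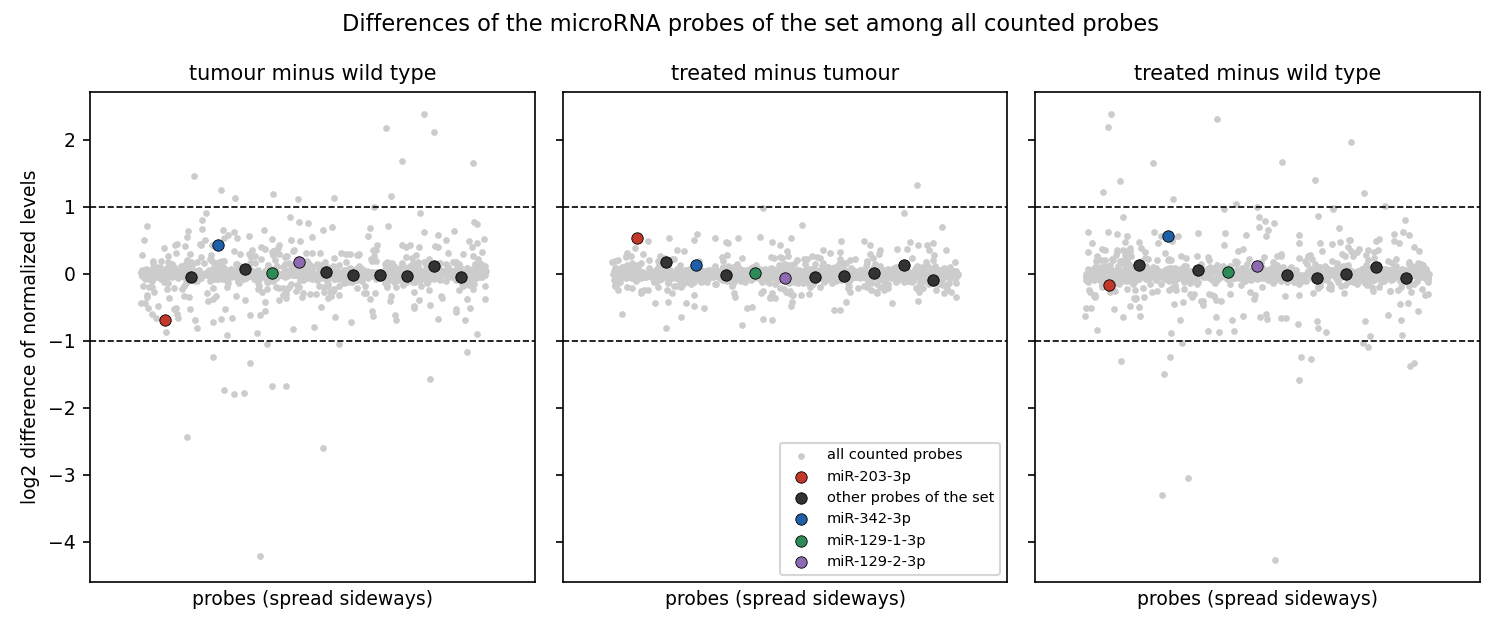
Log2 difference of normalized levels in each comparison for all probes detected on at least 1 of the 2 arrays (grey, 1040, 1015 and 1027 probes) and for the probes of the set (large points); dashed lines mark 2-fold, and probes detected on 1 array only are drawn at their computed value. Every large point lies between the dashed lines, with miR-203-3p at -0.69 and 0.53 in the first and second panels. The offset added before the logarithm draws the points of dim probes towards 0.

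The third comparison set treated tumour organoids against wild-type organoids. miR-203-3p was lower by 0.17 on the log2 scale (-0.17), nearer to wild type than on the untreated array. This depends on the scale: the difference was 0.21 under spike scaling and between -0.41 and -0.13 under the other settings. The comparisons of tumour minus wild type and treated minus tumour share the untreated tumour array, so any deviation of that array enters both with opposite sign. miR-342-3p was at 0.56, farther from wild type than on the untreated array by 0.13, and passed 2-fold with an offset of 16 (1.01), after subtraction of the blank mean (1.67) and on the authors' scale (1.51). None of 11 probes of the set reached 2-fold, where 2.63% of 1027 did (1.27% higher and 1.36% lower). The offset again limits this count for dim probes. With the blank mean subtracted 5 of 11 reached 2-fold, with no share of all probes counted beside it. With the offset, the median over the 11 was 0.022, with 6 above 0 and 5 below, beside -0.0051 over all.

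**Figure D4:**
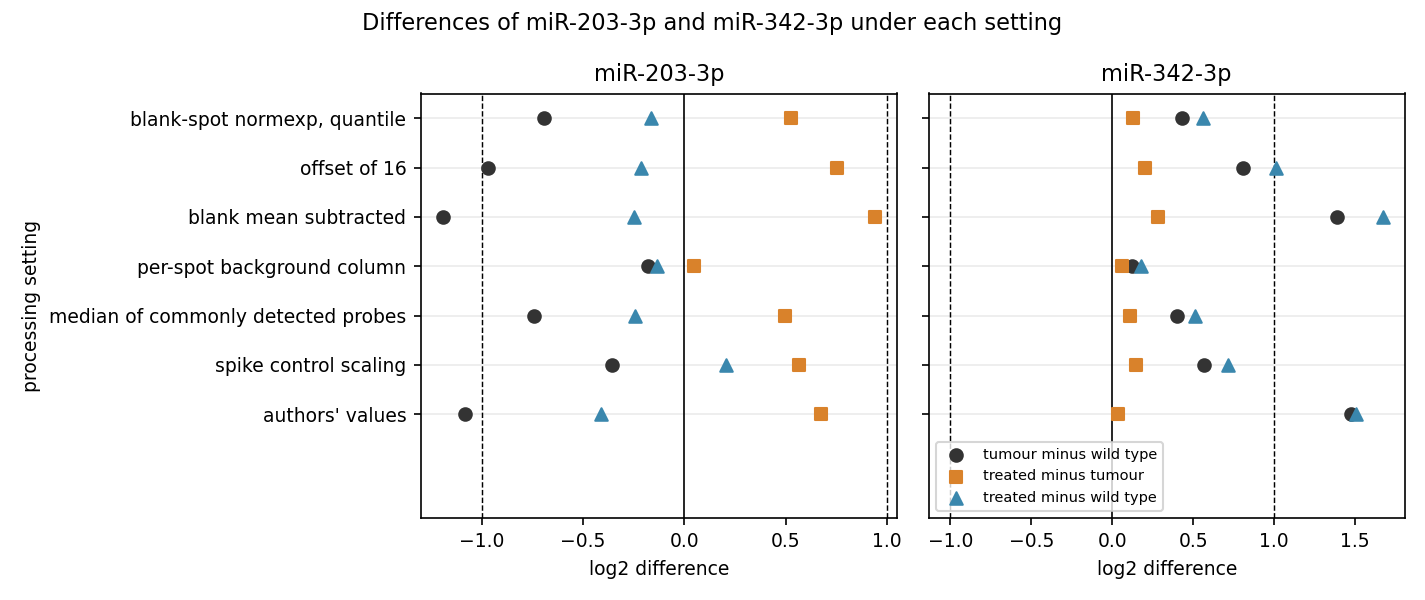
Log2 differences of miR-203-3p and miR-342-3p in the 3 comparisons under the setting used in the text (top row) and 6 other settings, of which the per-spot background column is the local background recorded for each spot; the dashed lines mark 2-fold. Under every setting shown miR-203-3p lay below 0 in tumour minus wild type and above 0 in treated minus tumour, and miR-342-3p lay above 0 in all comparisons.

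The probes whose pattern was most like that of a member were sought by the distance over the log2 differences of tumour minus wild type and treated minus tumour, among 374 others brighter than the Negative Controls on all arrays. For miR-203-3p they were miR-5121 (-0.66 and 0.55), miR-5099 (-0.66 and 0.43) and miR-3096b-5p (-0.52 and 0.47). For miR-129-1-3p, which hardly differed, they were miR-425-5p, miR-3093-3p and miR-2137, each within 0.02 of 0. The likeness rests on 3 arrays.

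A wider list of other microRNAs described as silenced by methylation in tumours, with 54 probes, was read in the same way. In tumour against wild-type organoids 47 of them were counted, 18 above 0 and 29 below, with a median of -0.017 and none at 2-fold. Over all 1040 probes 540 lay above 0 and 499 below, and 2.6% were at 2-fold. For the dim probes of this list too, the offset limits the 2-fold count in each comparison. Probes were ranked among those over the brightest Negative Control on both arrays compared, which leaves out those that dropped under it. The lowest were miR-149-3p (-0.64), miR-375-3p (-0.51), which marks endocrine cells, and miR-148a-3p (-0.41), which represses the methyltransferase Dnmt1. Before normalization the spot of miR-149-3p was brighter in tumour organoids, at 5215 above the blank mean against 3719 in wild type. Its negative sign is that after quantile normalization, and the other settings were not read for this probe. The highest were miR-34a-5p (0.49), a p53 target, miR-133b-3p (0.18), known from muscle, and miR-200c-3p (0.14), which maintains the epithelial state. Other probes were over that limit on 1 of the arrays compared, which by itself favours a difference in that direction. Those over it in wild-type organoids were miR-193a-3p (-0.72), miR-218-5p (-0.60) and miR-195a-5p (-0.26). The one over it in tumour organoids was miR-181c-5p (0.30).

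After treatment 42 probes of the wider list were counted, 26 above 0 and 15 below, with a median of 0.045 and none at 2-fold. Over all 1015 probes 453 lay above 0 and 545 below, and 0.0985% were at 2-fold. Among probes over the limit on both arrays, miR-34a-5p (0.91), miR-141-3p (0.23) and miR-200a-3p (0.22) were highest, and miR-148a-3p (-0.24), miR-375-3p (-0.19) and miR-133b-3p (-0.16) lowest. Before normalization the spots of miR-141-3p and miR-200a-3p were dimmer after treatment, at 453 against 593 and 986 against 1404 above the blank mean. That of miR-34a-5p was brighter, at 335 against 233. The other settings were not read for these probes. miR-193a-3p and miR-141-5p, over the limit on the treated array and not on the untreated one, were at 0.35 and 0.16. Against wild type, miR-34a-5p in treated organoids was the list's single probe past 2-fold, at 1.41, from 105 to 335 above the blank mean. In that comparison 47 probes were counted, 22 above 0 and 25 below, with a median of -0.0083, beside 492 above and 534 below over all 1027 probes and 2.63% at 2-fold. With the limit met on both arrays, the other highest were miR-149-5p (0.20) and miR-200c-3p (0.12), and the lowest miR-375-3p (-0.70), miR-148a-3p (-0.64) and miR-149-3p (-0.51). With the limit met on 1 of the arrays, miR-181c-5p was at 0.40, miR-141-5p at 0.19, miR-195a-5p at -0.25 and miR-218-5p at -0.66. These probes outside the limit on both arrays were added after their values were seen.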

How the data were processed

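RNA came from the mirVana kit, per the labels' protocols. The deposited scanner intensity is the spot median at 635 nm with no background subtracted, joined from 3 gains, per the file headers. In the table of values that the authors deposited, the intensity of each probe equals its spot median less a trimmed blank mean, divided by 1 factor per array (median 25), as a comparison of both showed. Sample titles gave the groups.

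limma 3.58.1 in R 4.3.3 corrected the spots by normexp with the mean and SD of the 1664 blank spots (5% trimmed at each end) and an offset of 50, and the 1265 microRNA probes were quantile normalized and put on the log2 scale. Of these, 2 probes marked as bad on the wild-type array were left out of comparisons with that array. A difference was counted for probes over the detection limit on either array, and for a probe detected on 1 of them only a bound is given. The precision is limited by the number of arrays. The steps were also run on simulated data with known differences. That outcome is not given here and does not vouch for the 2-fold counts. Alternatives were an offset of 16, the blank mean subtracted (values under 1 set to 1), the local background column, the median of commonly detected probes, spike scaling, the authors' values, and other detection limits. The members, lists and settings were chosen with earlier results of these data known. All probes of the set are accounted for, with values on every array for those over the Negative Controls; the rule gave other members by range and at most 1 example per microRNA, and their further values were added after they were seen. Probes alike in pattern were the 3 nearest, and in the wider list the 3 largest differences each way among probes over the brightest Negative Control on both arrays were named. That list and the marker lists give miR-497 and miR-126 under the spelling of the files. Python 3.11.15 with numpy 2.4.6, pandas 2.3.3 and matplotlib 3.10.9 was used for the rest.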

Additional observations from a re-analysis of the deposited data

How the results depend on the processing

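No paired analysis was possible because each group had 1 array. The count of members at 2-fold, 0 in each comparison, was 0 in all comparisons with the local background column, the median of commonly detected probes, spike scaling, detection on both arrays and the Negative Control limit. With the blank mean subtracted it was 5 of 12 in tumour against wild type, 4 of 11 in treated against untreated and 5 of 11 in treated against wild type. Most of these were dim probes: only miR-203-3p and miR-342-3p among them were over the Negative Controls on any array. In the authors' values it was 2 of 9 (miR-203-3p, miR-342-3p), 1 of 8 (miR-124-3p) and 2 of 9 (miR-203-5p, miR-342-3p). With an offset of 16 it was 1 of 11 in treated against wild type. The share of all probes at 2-fold was not counted under these other settings, so the counts do not set the members apart from other probes. The median of tumour minus wild type moved to -0.19 with the blank mean subtracted, 0.054 under spike scaling and 0.21 in the authors' values, where all probes were at 0.022, 0.068 and 0.10. That of treated minus tumour moved to -0.19 in the authors' values, where all probes had a median of -0.26. That of treated minus wild type moved to 0.079, 0.14 and 0.43 under these 3 settings, where all probes were at -0.030, 0.077 and -0.14. With the mean plus 3 SD of the Negative Controls as the limit, 1 member in wild-type and 2 in tumour organoids passed, against 2 and 4. Signs turned for miR-203-3p in treated against wild type (0.21, spike scaling), for miR-129-1-3p in treated against untreated (-0.21 at the lowest) and against wild type (-0.019), and for miR-129-2-3p in treated against untreated (0.0067). The cause was not tested.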
